A study of Mus musculus with 12 samples.

Results

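Complex I transcripts were followed through all genes whose symbol starts with Nduf, leaving out the assembly factors (Ndufaf), in liver RNA from 12 Illumina bead arrays. A gene was tested when a probe had a detection p under 0.05 on at least 3 arrays, and its brightest such probe stood for it. Of 36 Nduf genes on the array, 35 were tested among 9747 genes in all. The single Ndufs1 probe was detected on 0 of 12 arrays, so this core subunit was not tested. The probes used were detected on all 12 arrays for 34 of the 35 genes and on 11 for Ndufb11, which was missed on array 1 of the group given both compounds. By symbol and textbook role, 33 of the 35 encode complex I subunits. Ndufa4 is now counted with complex IV, and Ndufs5-ps is named as a pseudogene whose probe may also read the Ndufs5 transcript. The subunits encoded by mitochondrial DNA were not analysed here.

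The livers came from male C57BL/6 mice aged 8 weeks, with 3 arrays in each of 4 groups. Controls (Cont) are recorded as uninjected, so comparisons with them may include injection and vehicle. The T3 group received daily intraperitoneal L-T3 (liothyronine, the active thyroid hormone) for 3 days. The xct_cnt group received XCT790, an inverse agonist of the estrogen-related receptor ESRRA, for 4 days, and the xct_T3 group received XCT790 for 4 days with L-T3 on the last 3. The arrays are numbered 1 to 3 within a group without a statement that each is a separate mouse, so p-values measure how these arrays vary, and that variation may be technical. In whole liver RNA, fewer cells of a type and less RNA per cell cannot be told apart.

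Complex I, NADH:ubiquinone oxidoreductase, takes electrons from NADH, passes them through a flavin and a chain of iron-sulfur clusters to ubiquinone, and pumps protons across the inner mitochondrial membrane. Its matrix arm holds an NADH-oxidizing N module and a ubiquinone-reducing Q module, and its membrane arm has a proximal and a distal pumping part. ESRRA with the coactivator PGC-1alpha is known to drive respiratory chain genes, and thyroid hormone is a textbook stimulus of mitochondrial respiration in liver.

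Promoter sequence is shown for 4 of the 6 subunits whose transcripts rose in at least 1 comparison below. RefSeq windows (GRCm38.p6) of 250 bases before to 50 bases after the gene start were found for 32 of the 35 genes. Ndufa2, Ndufb9 and Ndufs5-ps had none, and 2 genes had more than 1 window. Ndufa5 was among the latter, with 2 windows, and only the first listed was searched and is shown. The windows are Ndufa1 at chrX:37191189-37191488 on the minus strand, Ndufa5 at chr6:24527477-24527776 on the minus strand, Ndufc1 at chr3:51408906-51409205 on the minus strand and Ndufs7 at chr10:80249199-80249498 on the plus strand. Each is written 5′ to 3′ on the strand of the gene. Capitals mark the NRF1 motif in Ndufa5 and the YY1 motif AAGATGGC in Ndufc1 and Ndufs7, and Ndufa1 held a match to none of the motifs searched.
Ndufa1: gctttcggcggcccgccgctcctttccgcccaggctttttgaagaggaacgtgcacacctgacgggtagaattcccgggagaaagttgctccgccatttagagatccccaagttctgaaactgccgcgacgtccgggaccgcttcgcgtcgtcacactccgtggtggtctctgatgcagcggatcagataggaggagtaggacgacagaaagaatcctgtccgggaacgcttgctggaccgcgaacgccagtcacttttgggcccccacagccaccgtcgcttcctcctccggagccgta
Ndufa5: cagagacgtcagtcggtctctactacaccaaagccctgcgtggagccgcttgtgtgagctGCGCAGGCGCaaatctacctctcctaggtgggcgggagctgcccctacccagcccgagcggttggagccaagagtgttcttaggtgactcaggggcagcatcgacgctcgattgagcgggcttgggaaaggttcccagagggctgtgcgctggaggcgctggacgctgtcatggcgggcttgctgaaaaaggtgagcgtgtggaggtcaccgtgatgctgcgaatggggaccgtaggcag
Ndufc1: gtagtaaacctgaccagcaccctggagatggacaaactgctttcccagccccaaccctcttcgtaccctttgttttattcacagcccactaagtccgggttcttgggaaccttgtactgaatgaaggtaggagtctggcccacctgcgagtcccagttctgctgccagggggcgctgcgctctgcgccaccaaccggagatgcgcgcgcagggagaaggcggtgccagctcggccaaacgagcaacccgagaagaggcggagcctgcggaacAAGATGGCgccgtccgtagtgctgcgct
Ndufs7: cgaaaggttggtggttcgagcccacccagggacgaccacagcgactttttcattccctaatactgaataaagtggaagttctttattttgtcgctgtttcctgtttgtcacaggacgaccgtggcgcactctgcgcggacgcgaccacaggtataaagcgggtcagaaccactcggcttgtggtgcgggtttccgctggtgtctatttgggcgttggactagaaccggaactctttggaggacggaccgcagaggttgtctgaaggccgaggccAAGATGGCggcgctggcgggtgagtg

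Exact matches were searched on both strands of the 32 windows. AAGATGGC, the core of the site of YY1, a zinc-finger factor known to act at respiratory promoters, was found in 7 windows (21.9%), against 4.68% of the 7900 tested genes with a window and 2.88% of all 27025 windows. Those genes were Ndufa3, Ndufa9, Ndufb8, Ndufc1, Ndufs4, Ndufs6 and Ndufs7, and in each of them the match lay on the gene's strand with its first base 23 to 39 bases after the start. In Ndufc1 and Ndufs7, printed above, it began 23 and 25 bases after the start. The site of NRF1, a regulator of nuclear-encoded respiratory genes, was searched as GCGCA, any base, GCGC. It was found in 6 windows (18.8%), against 10.3% of tested genes. In Ndufa5 it began at position -190 from the start. CCGGAAG, bound by the GABP factor (NRF2 of respiratory genes), was found in 4 windows (12.5%), against 18% of tested genes. AAGGTCA, the element of the estrogen-related receptors, was found in Ndufb2 and Ndufb4 (6.25%), against 3.32% of tested genes. The direct repeat of the thyroid hormone receptor, AGGTCA followed on the same strand by 4 bases of any kind and AGGTCA, was found in 0 of the 32 windows and in 0 of the 7900. A match is a description of these letters, and a window without one says nothing about binding elsewhere.

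The arrays were alike in quality. Between 31.9% and 35.6% of the 45281 probes were detected per array, summed intensity ran from 14568457 to 22343383, and arrays of 1 group correlated at 0.989 to 0.992 over the genes tested. The highest summed intensity was on xct_cnt array 3. The hormone label was checked on 9 thyroid response genes, of which 8 rose with T3 and 7 with T3 in mice given XCT790, Dio1 among them by 2.13 and 2.09 (log2, SE 0.16 each), from 9.99, 10.18 and 10.54 in controls to 12.42, 12.44 and 12.23 with T3. Thrsp, a T3-responsive lipogenic gene, read 10.93, 11.40 and 10.66 in controls, 13.53, 13.59 and 13.64 with T3 and 11.87, 12.45 and 12.37 with XCT790, without overlap. XCT790 against control also raised 3 of the 9 thyroid response genes. Their lowest effect of T3 in mice given XCT790 was -0.41. Of 9 hepatocyte markers tested, bright ones such as Apoa1, Ttr and Cyp2e1 were detected on every array, and the summed linear intensity was 141000 to 157000. Apoa1 and Ttr are named for their brightness, after their values were seen. The Alb probe was near background, detected on 2 of 3 control, 0 of 3 T3, 3 of 3 XCT790 and 2 of 3 arrays with both compounds. Markers of lymphocytes, muscle and fat were mostly undetected, with 1 of 10, 2 of 6 and 1 of 6 tested.

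T3 against control asked what the hormone alone did to complex I transcripts. T3 raised 5 of 35 Nduf genes and lowered 0, by 0.27 to 0.49 on the log2 scale, or 1.21-fold to 1.40-fold. They were Ndufa5 and Ndufs7 of the Q module, Ndufa1 and Ndufc1 of the proximal membrane arm and Ndufb7 of the distal arm. The 14.3% that passed (limma, Benjamini-Hochberg adjusted p under 0.05 over 9747 genes, two-sided) stands beside 16.1% of all genes in either direction, 7.24% higher and 8.91% lower. Fitted differences were above 0 in 32 of 35 (91.4%), against 48.9% of all genes, with a median of 0.15 against -0.01 over all genes. An unadjusted p under 0.05 was reached by 11 of 35, against 29.9% of all genes. The 3 T3 arrays lay wholly above the 3 control arrays in 14 genes and wholly below in 0, against 15.7% and 19.1% of all genes. With limma's median scaling over all probes 0 Nduf genes passed in this or any other contrast. Then 21 of 35 fitted differences were above 0 and the median was 0.08, against -0.04 over all genes. Above that all-gene median lay 29 of 35. Scaling over detected probes, added after seeing the data, aligned each array by its median over the probes detected on at least 3 arrays. With it 27 of 35 were above 0, 29 of 35 were above the all-gene median and 2 passed. The shares of all genes that passed with these scalings or without single arrays are not given. The count that passed was 2 without any one of control arrays 1, 2 and 3, T3 array 1 or T3 array 3, and 3 without T3 array 2, xct_cnt array 1 or xct_T3 array 2.

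**Figure D1:**
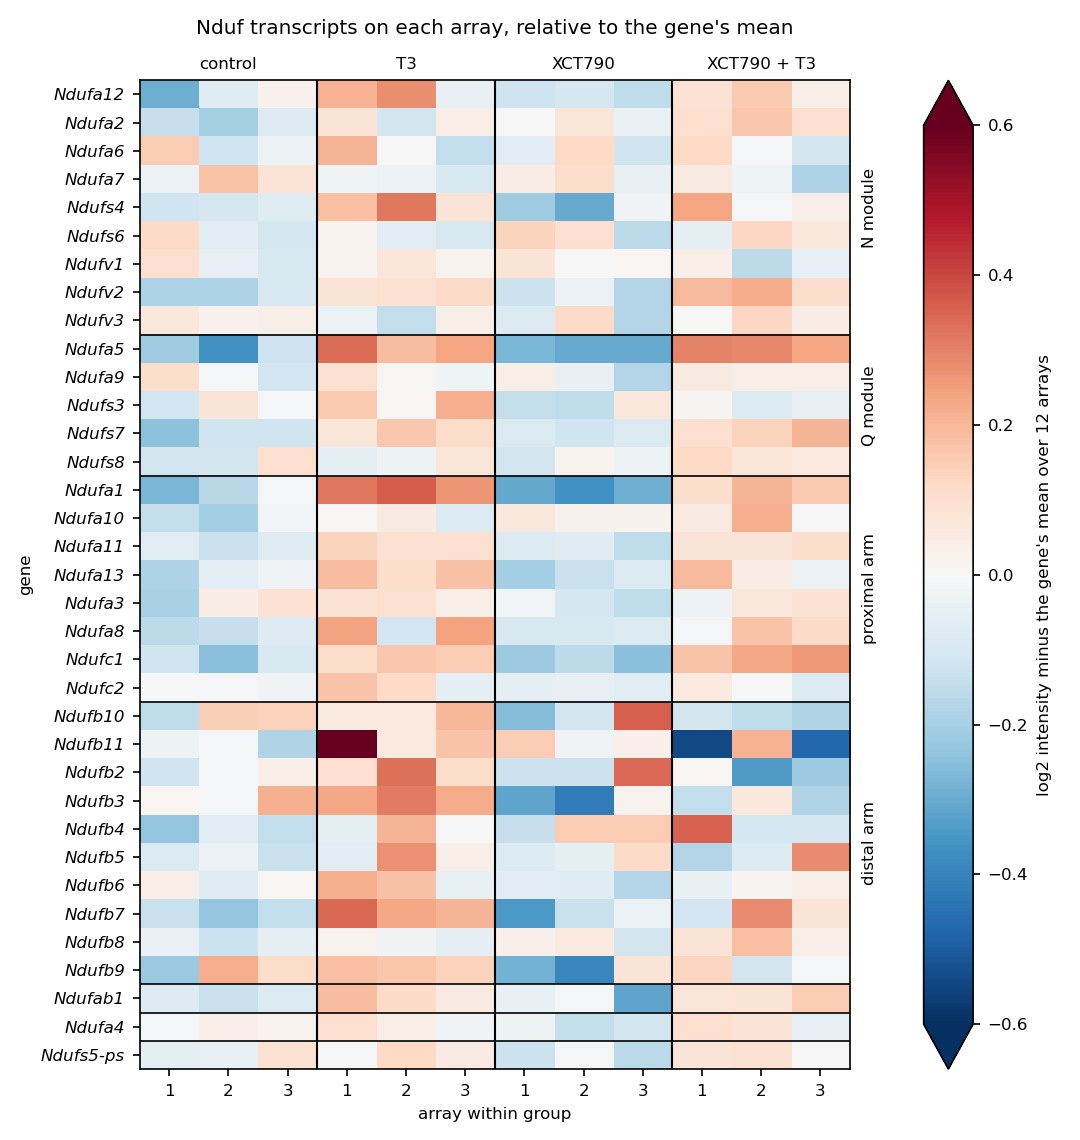
Log2 intensity of each of the 35 Nduf genes (rows, by module) on each of the 12 arrays (columns, by group), minus the gene's mean over all arrays; red is above the mean and blue below, and the colour scale ends at 0.6 on either side. Red predominates in the T3 columns and in the matrix and proximal rows of the columns with both compounds, and 5 genes, among them Ndufa1 and Ndufa5, passed the test between T3 and control. Values are after quantile normalization. With median scaling over all probes the difference between both compounds and XCT790 has a median of -0.10, beside -0.17 over all genes.

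Ndufa5, an accessory subunit of the Q module, gave the highest T3 effect of the family. Its log2 intensity was 11.95, 11.80 and 12.04 in controls and 12.50, 12.35 and 12.40 with T3. It was 11.89, 11.86 and 11.86 with XCT790 and 12.46, 12.45 and 12.40 with both compounds. All 6 arrays with T3 lay above all 6 without it, and the groups with and without XCT790 overlapped. T3 raised Ndufa5 by 0.49 (SE 0.09, 1.40-fold, adjusted p = 0.00349), and in mice given XCT790 by 0.56 (SE 0.09, 1.48-fold, adjusted p = 0.00156). Of 23 other settings, only median scaling over all probes ended these calls, with adjusted p = 0.171 and 0.214. A second kept Ndufa5 probe gave 0.74 (SE 0.12) and 0.49 (SE 0.12).

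Ndufs7, a core subunit that carries the last iron-sulfur cluster before ubiquinone, read 12.10, 12.23 and 12.23 in controls, 12.42, 12.51 and 12.46 with T3, 12.26, 12.23 and 12.26 with XCT790, and 12.45, 12.48 and 12.55 with both. Here too every array with T3 was above every array without. T3 raised it by 0.27 (SE 0.08, adjusted p = 0.0462), while the 0.24 in mice given XCT790 did not pass (SE 0.08, adjusted p = 0.0785). The Ndufs7 call for T3 against control was lost in 16 of 23 other settings, with adjusted p from 0.0186 to 0.634. The other Q-module genes did not pass. The core subunits Ndufs3 and Ndufs8 gave 0.15 (SE 0.10) and 0.03 (SE 0.09), and Ndufa9, an accessory subunit near the ubiquinone site, 0.03 (SE 0.09). Over the 5 Q-module genes tested the median effect was 0.15, and 0.12 in mice given XCT790, where it was -0.10 with limma's median scaling over all probes, or 0.07 relative to the median of all genes.

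In the proximal membrane arm, Ndufa1, a small membrane-spanning subunit needed for assembly, read 12.67, 12.78 and 12.94 in controls and 13.26, 13.31 and 13.21 with T3. It read 12.64, 12.58 and 12.65 with XCT790 and 13.05, 13.15 and 13.10 with both. The 4 groups were ordered without overlap between T3, both compounds, control and XCT790, from high to low. T3 raised Ndufa1 by 0.46 (SE 0.09, 1.38-fold, adjusted p = 0.00534) and by 0.48 in mice given XCT790 (SE 0.09, 1.39-fold, adjusted p = 0.00500), calls that were lost only with median scaling over all probes (adjusted p = 0.219 and 0.375). The steps between groups with and without XCT790, -0.18 (adjusted p = 0.361) and -0.16 (adjusted p = 0.518), did not pass.

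Ndufc1, another single-span subunit of the membrane arm, read 12.07, 11.94 and 12.10 in controls, 12.30, 12.35 and 12.34 with T3, 11.97, 12.03 and 11.94 with XCT790, and 12.36, 12.42 and 12.45 with both. All 6 arrays with T3 were again above all 6 without. The T3 effect was 0.29 alone (SE 0.09, adjusted p = 0.0353) and 0.43 in mice given XCT790 (SE 0.09, adjusted p = 0.00546). The first of these calls was lost in 12 of 23 other settings and the other in 1 of 23. The second Ndufc1 probe gave 0.46 (SE 0.11) and 0.43 (SE 0.11). The other proximal genes did not pass. All 8 proximal effects were above 0 in both T3 comparisons, with medians of 0.22 and 0.19, though median scaling over all probes left 6 of 8 and 3 of 8 above 0, with medians relative to all genes of 0.18 and 0.11. T3 against control gave 0.24 (SE 0.09) for Ndufa13, also known as GRIM-19, 0.24 (SE 0.11) for Ndufa8, and 0.20 (SE 0.08) for Ndufa11. It gave 0.12 (SE 0.09) for Ndufa10, 0.09 (SE 0.10) for Ndufa3 and 0.09 (SE 0.09) for Ndufc2.

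**Figure D2:**
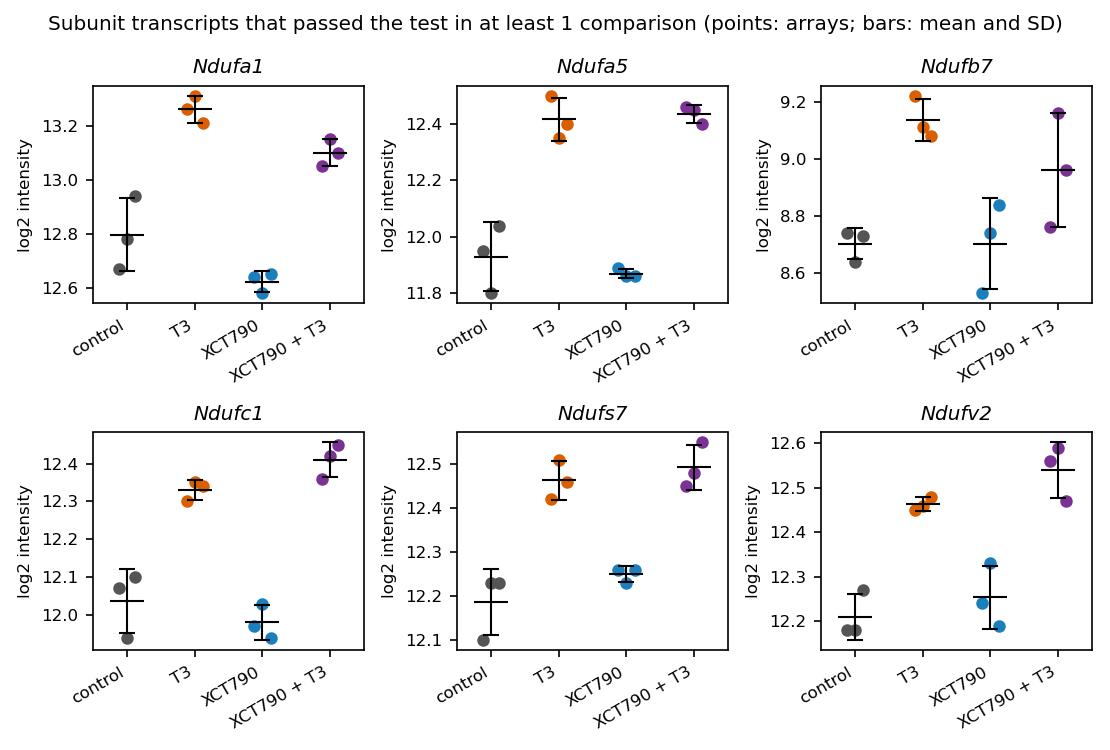
Log2 intensity (vertical axes, a different range in each panel and not starting at 0) of the 6 Nduf genes that passed the test in at least 1 comparison, by group; points are arrays, the long bar is the mean and the short bars are the SD of 3 arrays. In Ndufa5, Ndufc1, Ndufs7, Ndufv2 and Ndufa1 the 6 arrays with T3 lie above the 6 without, while in Ndufb7 xct_T3 array 1 overlaps the arrays without T3. The genes were picked by a test on these same values, so this order is no further support. Ndufa11, Ndufab1 and Ndufs4, which did not pass, have the same order, and its share over all genes is not given.

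The N module, where NADH is oxidized, had 0 of 9 genes passing for T3 against control, with a median of 0.06 and 6 of 9 above 0. An unadjusted p under 0.05 (limma) was reached by 3 of the 9, against 29.9% of all genes. Ndufv2, a core subunit with an iron-sulfur cluster beside the flavin, read 12.18, 12.18 and 12.27 in controls, 12.45, 12.46 and 12.48 with T3, 12.24, 12.33 and 12.19 with XCT790, and 12.56, 12.59 and 12.47 with both. All 6 arrays with T3 were above the 6 without. Its T3 effect was 0.26 (SE 0.09, adjusted p = 0.0636), and it rose by 0.29 in mice given XCT790 (SE 0.09, adjusted p = 0.0416), a call lost in 14 of 23 other settings. Ndufs4, an accessory subunit whose loss causes Leigh syndrome in humans, gave 0.29 (SE 0.11, adjusted p = 0.0952) and 0.27 (SE 0.11, adjusted p = 0.131), with its 3 other probes between 0.18 and 0.22 for T3 against control. Ndufa12 gave 0.26 (SE 0.11) and Ndufa2 0.14 (SE 0.09).

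The remaining N-module genes lay close to 0 or below it. Ndufv1, the core subunit that binds flavin and NADH, gave 0.06 (SE 0.09), and Ndufa6 gave 0.01 (SE 0.12). The 3 lowest T3 effects of the family were all here. Ndufa7 read 11.79, 12.00 and 11.91 in controls and 11.80, 11.79 and 11.73 with T3, a difference of -0.13 (SE 0.10). Ndufv3 read 12.75, 12.71 and 12.72 in controls and 12.65, 12.54 and 12.72 with T3, a difference of -0.09 (SE 0.10), and Ndufs6 read 13.90, 13.72 and 13.68 against 13.81, 13.72 and 13.69, a difference of -0.02 (SE 0.11). Control and T3 arrays overlapped in all 3 genes. Other probes went the opposite way, with 0.15 (SE 0.10) and 0.10 (SE 0.26) for Ndufv3 and 0.30 (SE 0.13) for Ndufs6, so the direction of these genes depends on the probe. Of 16 other kept probes of Nduf genes, 12 had the sign of the probe used for T3 against control and 14 for T3 in mice given XCT790.

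The distal membrane arm, built around antiporter-like pump subunits, was above 0 with T3 in 10 of 10 genes, or 7 of 10 with median scaling over all probes, with a median of 0.18, or 0.15 relative to all genes under that scaling. Ndufb7, an intermembrane-space subunit, read 8.74, 8.64 and 8.73 in controls, 9.22, 9.11 and 9.08 with T3, 8.53, 8.74 and 8.84 with XCT790, and 8.76, 9.16 and 8.96 with both. The control and T3 arrays were apart, while the XCT790 arrays overlapped with those given both. Ndufb7 rose by 0.43 with T3 (SE 0.12, adjusted p = 0.0276), a call lost in 8 of 23 other settings, and gave 0.25 in mice given XCT790 (SE 0.12, adjusted p = 0.181). Among the others, T3 against control gave 0.36 (SE 0.19) for Ndufb11, 0.21 (SE 0.14) for Ndufb2, 0.20 (SE 0.14) for Ndufb4, 0.19 (SE 0.12) for Ndufb3, 0.17 (SE 0.13) for Ndufb5, and between 0.06 and 0.13 for Ndufb6, Ndufb8, Ndufb9 and Ndufb10. Outside the arms, Ndufab1, the mitochondrial acyl carrier protein, gave 0.21 (SE 0.10) with its other probes at 0.35, 0.06 and -0.28, Ndufa4 gave 0.03 (SE 0.09) and Ndufs5-ps 0.06 (SE 0.09).

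**Figure D3:**
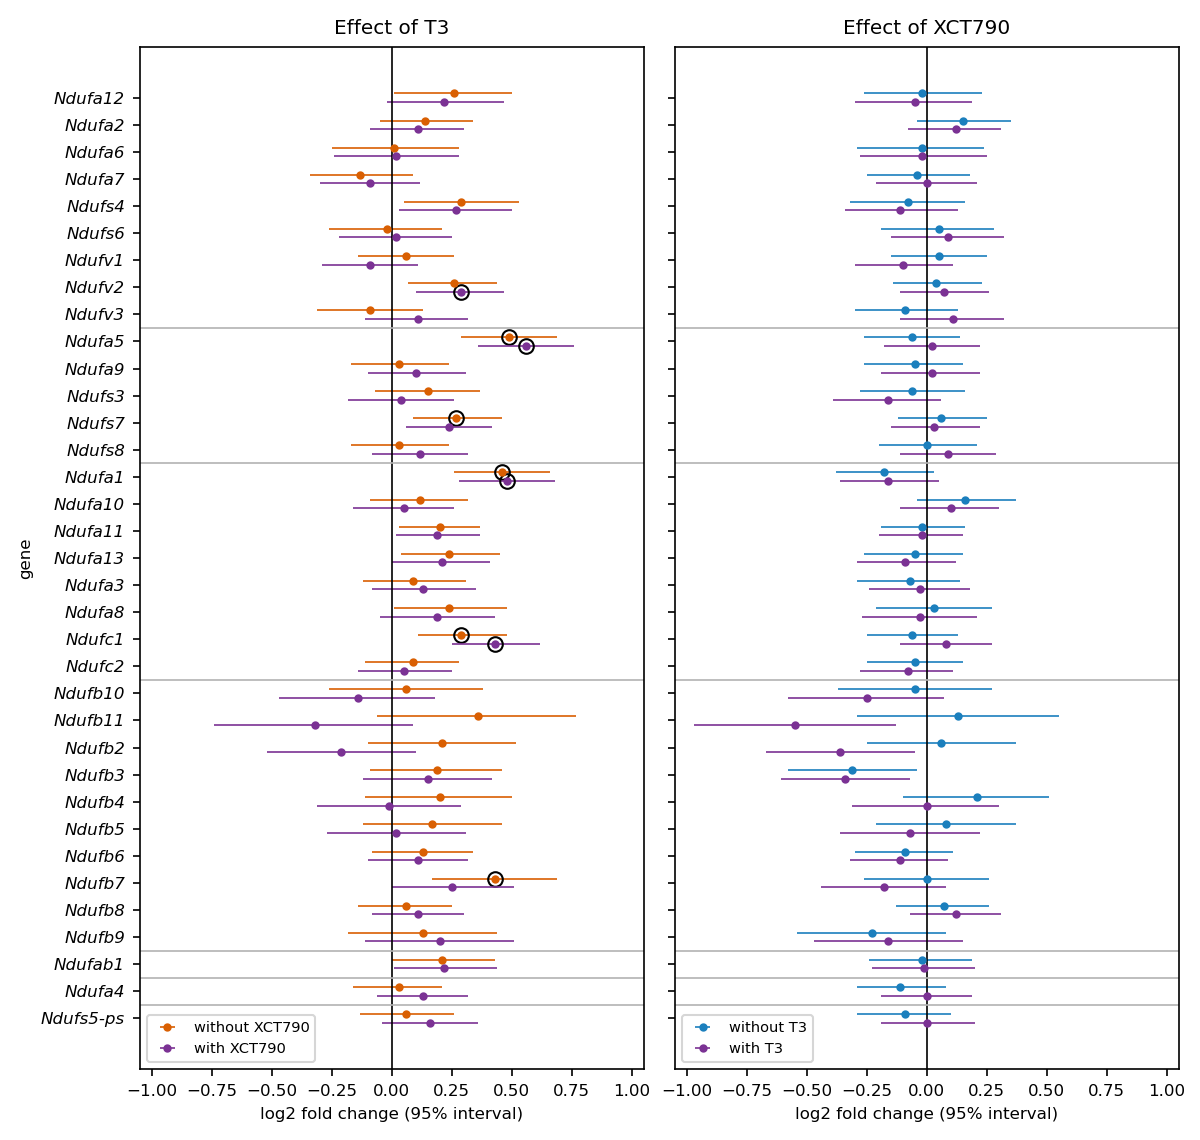
Fitted log2 fold change with its 95% interval (horizontal axes) for each Nduf gene (rows, by module, in the order N, Q, proximal arm, distal arm, Ndufab1, Ndufa4 and Ndufs5-ps). The left panel shows the effect of T3 without and with XCT790 and the right panel that of XCT790 without and with T3; rings mark adjusted p under 0.05, and the right panel has none.

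T3 added to XCT790 asked whether the hormone acted on complex I transcripts while XCT790 was given. In mice given XCT790, T3 raised 4 of 35 Nduf genes and lowered 0, namely Ndufa1, Ndufa5, Ndufc1 and Ndufv2, by 0.29 to 0.56. The 11.4% stands beside 15.2% of all genes in either direction, 7.63% higher and 7.56% lower. Fitted differences were above 0 in 29 of 35 (82.9%), against 49.3% of all genes, with a median of 0.12 against 0. With median scaling over all probes the Nduf median was below 0, at -0.10, beside an all-gene median of -0.17, and 24 of 35 Nduf genes lay above the latter. Groups lay apart upward in 15 genes and downward in 0, against 16.2% and 16.6% of all genes. Ndufa1, Ndufa5 and Ndufc1 passed in both T3 comparisons, which is 3 of 35, against 3.89% of all genes. In 9 of the 35 both T3 groups lay wholly above their own comparison group, against 7.48% of all genes, and 27 (77.1%) were above 0 in both, against 33.3%. These 2 comparisons share no arrays. Across the 35 genes the 2 effects had a Pearson r of 0.52 and a Spearman rho of 0.59, against 0.69 and 0.54 over all genes. The r is a description across genes, which share the arrays and are not independent replicates.

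The 3 lowest effects of T3 in mice given XCT790 were all in the distal arm. Ndufb11 read 5.67, 5.69 and 5.52 in controls, 6.32, 5.76 and 5.87 with T3, 5.85, 5.68 and 5.73 with XCT790, and 5.16, 5.91 and 5.23 with both. One of the 3 arrays with both compounds was above all XCT790 arrays and the other 2 were below, and these values lie near background. Ndufb2 read 8.33, 8.33 and 8.80 with XCT790 and 8.47, 8.12 and 8.24 with both, and Ndufb10 read 10.74, 10.89 and 11.36 against 10.89, 10.85 and 10.82. In both, xct_cnt array 3 was the high value and the groups overlapped. In controls Ndufb10 read 10.85, 11.15 and 11.14 and Ndufb2 8.34, 8.45 and 8.50. T3 in mice given XCT790 gave -0.32 (SE 0.19) for Ndufb11, -0.21 (SE 0.14) for Ndufb2 and -0.14 (SE 0.15) for Ndufb10, and none of these passed. The distal median was 0.06 with 6 of 10 above 0, and without xct_cnt array 3 it was 0.07 with 8 of 10 above 0. With median scaling over all probes it was -0.17, equal to the all-gene median.

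The interaction tested the difference between both T3 effects directly. It passed in 0 of 35 Nduf genes and in 0.462% of all genes, 0.185% higher and 0.277% lower, with 1 Nduf gene under an unadjusted p of 0.05, against 12.1% of all genes, and a lowest adjusted p of 0.338 (limma). That gene was Ndufb11, at -0.68 (95% interval -1.27 to -0.09, unadjusted p = 0.0275). In all, 16 of 35 were above 0, against 52.6%, and the Nduf median was -0.02. The distal arm had an interaction median of -0.16 with 2 of 10 above 0. It was -0.07 without xct_cnt array 3, and -0.19 relative to all genes under either median scaling. Outside this arm the dimmest Nduf probe used averaged 10.67 (Ndufa12, log2). Below that lay Ndufb11 (5.70), Ndufb4 (6.94), Ndufb2 (8.46), Ndufb7 (8.88), Ndufb5 (9.18) and Ndufb9 (9.48). Their interactions were -0.68, -0.21, -0.42, -0.18, -0.15 and 0.07 in that order. The brighter Ndufb3, Ndufb6, Ndufb8 and Ndufb10 gave -0.03, -0.02, 0.05 and -0.20. The part of probe brightness was not tested. On xct_cnt array 3, 7 of 10 distal genes had their highest value of the 3 XCT790 arrays, as did 5 of the other 25 Nduf genes and 3245 of all 9747 genes. Its mean distal deviation from each gene's mean was 0.077, against -0.144 and -0.112 on arrays 1 and 2 of that group. The count uses the same distal values in which this array stood out. Distal medians without any other array are not given.

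XCT790 against control asked what the ESRRA inverse agonist did without added hormone. It changed 0 of 35 Nduf genes, with 4.44% of all genes passing, 2.29% higher and 2.15% lower, 1 Nduf gene at an unadjusted p under 0.05 against 17.9% of all genes, and a lowest adjusted p of 0.208. Effects ran from -0.31 to 0.21 with a median of -0.02, against -0.01 over all genes, and 13 of 35 were above 0, against 48.4%. With scaling over detected probes 28 of 35 were above 0, with a median of 0.04. The all-gene median was also 0.04 there, and 18 of 35 lay above it. The 95% intervals of single genes reached from -0.58 to 0.55. The smallest change that passed anywhere in this comparison was 0.35, against 0.26 for T3 against control. Smaller shifts of 1 gene could therefore have been missed here. The 3 XCT790 arrays lay above controls in 2 genes and below in 3, against 10.5% and 11.4% of all genes. Those above were Ndufa2 and Ndufa10, and those below Ndufa1, Ndufc2 and Ndufa4.

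Ndufb3, a distal-arm subunit, gave the lowest XCT790 effect. It read 11.15, 11.13 and 11.35 in controls, 11.37, 11.45 and 11.36 with T3, 10.82, 10.72 and 11.16 with XCT790, and 10.99, 11.20 and 10.96 with both. The XCT790 arrays overlapped controls through array 3, and both groups with XCT790 averaged below their counterparts. The difference was -0.31 against control (SE 0.12, adjusted p = 0.208) and -0.34 in mice given T3 (SE 0.12, adjusted p = 0.287). Ndufb3 was the seventh gene to pass the test of any difference among the 4 groups (adjusted p = 0.0465), which 7 of 35 Nduf genes passed, against 24.8% of all genes. The other 6 were those that rose with T3 in at least 1 comparison. By this test 8 genes passed without xct_cnt array 3, 6 without xct_T3 array 2, and 3 or 4 without any other array.

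Values on both sides of 0 filled the rest of the XCT790 effects. Ndufb9 read 9.26, 9.70 and 9.59 in controls and 9.20, 9.09 and 9.56 with XCT790, a difference of -0.23 (SE 0.14). Ndufb4 read 6.70, 6.87 and 6.79 against 6.80, 7.09 and 7.09, a difference of 0.21 (SE 0.14). Groups overlapped in both. Ndufa10 read 12.42, 12.36 and 12.55 against 12.63, 12.59 and 12.59, a difference of 0.16 (SE 0.09, adjusted p = 0.415), and Ndufa2 read 12.40, 12.34 and 12.46 against 12.54, 12.61 and 12.50, a difference of 0.15 (SE 0.09, adjusted p = 0.419). In these 2 genes the groups did not overlap, yet neither passed.

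XCT790 in mice given T3 asked what the inverse agonist did once T3 was present. It changed 0 of 35 Nduf genes and 0.0923% of all genes, 0.0718% higher and 0.0205% lower, with 3 Nduf genes at an unadjusted p under 0.05, against 12.7% of all genes, and a lowest adjusted p of 0.268. Effects ran from -0.55 to 0.12 with a median of -0.02, against 0.01 over all genes, and their 95% intervals from -0.97 to 0.32. Above 0 were 14 of 35, against 52.6%. With scaling over detected probes 21 of 35 were above 0 (median 0.05). The all-gene median was 0.07 there, and 16 of 35 lay above it. The 3 genes were Ndufb11 at -0.55 (SE 0.19), Ndufb2 at -0.36 (SE 0.14) and Ndufb3 at -0.34 (SE 0.12), all of the distal arm. Ndufb2 had read 8.56, 8.79 and 8.57 with T3, above all 3 arrays with both compounds, while Ndufb11 overlapped. The distal median was -0.17, and -0.20 relative to all genes under either median scaling, with 1 of 10 above 0. The gene above 0 was Ndufb8, at 0.12 (SE 0.09), with 13.22, 13.18 and 13.14 with T3 and 13.28, 13.38 and 13.24 with both, without overlap. The other high effects were those of Ndufa2, at 0.12 (SE 0.09) with 12.62, 12.43 and 12.58 against 12.64, 12.70 and 12.64, and Ndufv3, at 0.11 (SE 0.10) with 12.69, 12.81 and 12.73 on the arrays with both. Ndufa2 did not overlap and Ndufv3 did. Other kept Ndufv3 probes went the opposite way, with -0.14 (SE 0.10) and -0.56 (SE 0.26), while the other kept Ndufb8 probe gave 0.11 (SE 0.12). Groups lay apart downward in 5 of 35 and upward in 3, against 8.85% and 10.4% of all genes. Medians of the N, Q and proximal groups were 0, 0.02 and -0.03.

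Both compounds against control asked where the combined treatment left complex I. Of 35 Nduf genes 5 rose and 0 fell, which is 14.3%, against 18.7% of all genes in either direction, 8.97% higher and 9.77% lower. Ndufa5 rose by 0.50 (SE 0.09, adjusted p = 0.00266), Ndufc1 by 0.37 (SE 0.09, adjusted p = 0.0102), Ndufv2 by 0.33 (SE 0.09, adjusted p = 0.0197), Ndufs7 by 0.31 (SE 0.08, adjusted p = 0.0262) and Ndufa1 by 0.30 (SE 0.09, adjusted p = 0.0406). With median scaling over all probes 0 Nduf genes passed here, and Ndufa5 had an adjusted p of 0.383. The Ndufa1 call was lost in 14 of 23 other settings, with adjusted p from 0.0164 to 0.969 and a difference down to 0.01. The Ndufv2 call was lost in 6, and that of Ndufs7 in 6, in 1 of which its sign turned. The median was 0.10 against -0.01 over all genes, and 26 of 35 were above 0, against 49.1%. With median scaling over all probes the median was below 0, at -0.17, beside -0.27 over all genes. Groups lay apart upward in 14 genes and downward in 0, against 16.9% and 18.6% of all genes. The lowest differences were -0.19 for Ndufb10 (SE 0.15) and Ndufb11 (SE 0.19) and -0.16 for Ndufb3 (SE 0.12), and none passed. The distal median was -0.01, and those of the N, Q and proximal groups 0.06, 0.12 and 0.19. This comparison uses the same controls as T3 alone and the same arrays as the contrasts within XCT790 or T3. The count that passed was 2 without control array 1, control array 2 or xct_T3 array 2, and 3 without xct_T3 array 1 or 3.

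Averaged over the 35 genes, the deviation of each array from the gene means was -0.091, -0.068 and -0.027 in controls and 0.128, 0.105 and 0.069 with T3. It was -0.100, -0.079 and -0.065 with XCT790 and 0.049, 0.064 and 0.014 with both. The arrays with T3 were above 0 and those without below 0, and no test is given for this score. With scaling over detected probes instead, the XCT790 arrays lay at -0.023, -0.009 and -0.039 and those with both at 0.084, 0.107 and -0.024, so these groups overlapped. Controls (-0.091, -0.100 and -0.023) and T3 (0.020, 0.078 and 0.021) did not overlap.

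**Figure D4:**
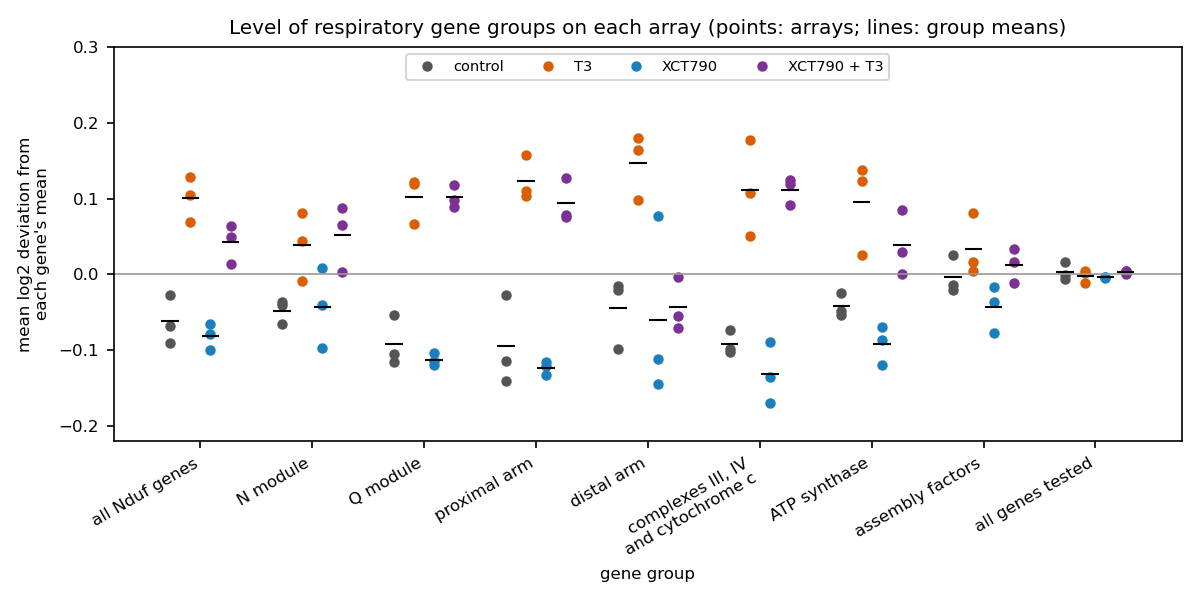
Mean log2 deviation from each gene's mean (vertical axis) for the Nduf genes, their modules, other respiratory groups, assembly factors and all genes tested (horizontal axis), with 1 point per array and a line at each group mean. For all Nduf genes the T3 arrays lie between 0.069 and 0.128 and the controls between -0.091 and -0.027; in the distal arm the arrays with both compounds lie below 0, and 1 XCT790 array stands at 0.077. With scaling over detected probes the 2 groups given XCT790 overlap for all Nduf genes.

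Assembly factors put the subunits together. Of 15 assembly factors tested, T3 raised 2 and lowered 0, with a median of 0.02. Over all genes T3 raised 7.24% and lowered 8.91%. Ndufaf4, an early assembly factor, read 9.26, 9.41 and 9.36 in controls, 10.01, 10.04 and 10.04 with T3, 9.79, 9.81 and 9.71 with XCT790, and 10.20, 10.24 and 10.08 with both. Every treated array was above every control. Ndufaf4 rose by 0.68 with T3 (SE 0.09, adjusted p = 0.00026), by 0.42 with XCT790 (SE 0.09, adjusted p = 0.0193) and by 0.41 with T3 in mice given XCT790 (SE 0.09, adjusted p = 0.00887). Foxred1, another assembly factor, rose by 0.48 and 0.52 in the T3 comparisons (SE 0.10 each, adjusted p = 0.00464 and 0.00352). Tmem126b, part of the assembly complex of the membrane arm, fell by 0.45 with T3 in mice given XCT790 (SE 0.13, adjusted p = 0.0374), and gave -0.29 with T3 alone (SE 0.13, adjusted p = 0.155). Acad9 read 7.17, 7.25 and 7.02 in controls and gave -0.44 with XCT790 (SE 0.15, adjusted p = 0.132) and -0.37 with T3 (SE 0.15, adjusted p = 0.119). Its arrays with T3 or XCT790 alone, from 6.58 to 6.91, were all below controls.

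The rest of the respiratory chain is given for comparison. Over all genes T3 raised 7.24% and lowered 8.91%, and in mice given XCT790 raised 7.63% and lowered 7.56%. Of 18 genes of complexes III and IV with cytochrome c, T3 raised 3 and lowered 0, with a median of 0.14. In mice given XCT790 it raised 3 and lowered 0, with a median of 0.20. With median scaling over all probes the latter median was 0, beside -0.17 over all genes. Cox7a1, a complex IV isoform typical of muscle and heart, rose by 1.20 and 1.17 (SE 0.21 each), and Cycs, the electron carrier cytochrome c, by 0.49 and 0.54 (SE 0.09 each). ATP synthase had 0 of 16 passing in either T3 comparison, with medians of 0.18 and 0.17. Median scaling over all probes made the latter -0.04, again beside -0.17 over all genes. An unadjusted p under 0.05 (limma) was reached by 3 and 6 of the ATP synthase genes, against 29.9% and 28.7% of all genes. Of 11 genes of other electron entries to ubiquinone, T3 raised 2 and lowered 1. Gpd2, which passes electrons from glycerol 3-phosphate to ubiquinone, rose by 1.26 (SE 0.10), and Chdh, choline dehydrogenase, fell by 1.32 on the log2 scale.

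Among 17 regulators of respiratory genes, T3 raised 2 and lowered 1, against 7.24% and 8.91% of all genes. Esrra, the receptor XCT790 binds, read 9.48, 9.37 and 9.28 in controls, 9.91, 10.07 and 9.88 with T3, 9.95, 10.14 and 9.75 with XCT790, and 10.00, 9.90 and 9.92 with both. Its controls were below all other arrays, and the 3 treated groups overlapped. Esrra rose by 0.58 with T3 (SE 0.11, adjusted p = 0.00442) and by 0.57 with XCT790 (SE 0.11, adjusted p = 0.0148), with an interaction of -0.58 (SE 0.16, adjusted p = 0.14). Ppargc1a, which encodes PGC-1alpha, read 7.19, 6.92 and 6.66 in controls, 7.59, 7.23 and 7.29 with T3, and 7.99, 7.83 and 7.26 with XCT790. Those treated arrays were above all controls. It gave 0.44 with T3 (SE 0.20, adjusted p = 0.16) and 0.77 with XCT790 (SE 0.20, adjusted p = 0.0508). Esrrg, a related receptor detected on 2 of 3 control arrays and 3 of 3 with T3, read 5.01, 5.19 and 5.20 in controls, near background, and 6.81, 7.25 and 6.51 with T3, and passed the test (adjusted p = 0.000252). Sirt3, a mitochondrial deacetylase, fell by 0.42 (SE 0.10, adjusted p = 0.0161).

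Markers of other cell types also differed with T3, which raised 7.24% and lowered 8.91% of all genes. In mice given XCT790 it raised 7.63% and lowered 7.56% of all genes. Of 10 liver macrophage markers tested, T3 raised 7 and lowered 0, with a median of 0.74, and in mice given XCT790 raised 6 and lowered 0, with a median of 0.71. Their summed linear intensity was 2520 to 4320 in controls, 5180 to 6270 with T3, 2500 to 3040 with XCT790 and 3640 to 6320 with both, and Cd5l was undetected. Of 11 endothelial markers T3 raised 0 and lowered 0 by limma, and 4 reached an unadjusted p under 0.05, against 29.9% of all genes. Their median was 0.16, with sums of 6840 to 8650 in controls and 8810 to 9800 with T3. Hepatocyte markers gave sums of 149000 to 157000 in controls, 145000 to 151000 with T3, 149000 to 155000 with XCT790 and 141000 to 143000 with both, with a median T3 effect of -0.07 over 9 genes. With T3, 1 of these 9 rose and 0 fell, and 6 of 9 had an unadjusted p under 0.05, against 29.9% of all genes. The one that rose was Hnf4a, a liver transcription factor, at 0.46 (SE 0.12), and in mice given XCT790 Cyp2e1 fell by 0.38 (SE 0.09). Tat and Fgb were undetected by their probes. Of 4 erythroid markers T3 raised 0 and lowered 1, Alas2, which fell by 1.23 (SE 0.13), and their mean deviation was 0.574 on T3 array 1 against -0.467 and -0.680 on the other T3 arrays. T3 array 1 also had the highest Nduf deviation, 0.128. Without it 2 Nduf genes passed for T3 against control, a count also reached without T3 array 3 or any one control array. The Nduf median relative to all genes was 0.14 without T3 array 1 and 0.15 with all arrays. With both compounds against control, Slc4a1 rose by 1.42 (SE 0.44), Alas2 fell by 1.29 (SE 0.13) and the erythroid median was 0.49. Of 2 bile duct markers T3 lowered 1, Sox9, which fell by 0.98 on the log2 scale (SE 0.20). Of 7 stellate cell markers 0 passed by limma in either T3 comparison. An unadjusted p under 0.05 was reached by 2 and 1 of them, against 29.9% and 28.7% of all genes. The part of these cell types in the Nduf values was not tested.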

How the data were processed

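Liver RNA of 12 samples, 3 per group, was labelled with biotin and hybridized to Illumina bead arrays. Per the file headers, the authors deposited non-normalized probe intensity and, per probe and array, a detection p-value. A second deposited matrix holds intensity that, from its values, is linear and quantile-normalized, and it served as an alternative. The submitters' processing notes name Partek 6.6.

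The deposited intensity was background-corrected with limma's normexp (background from detection p, offset 16), then quantile-normalized and log2-transformed (limma 3.58.1, R 4.3.3). Of 45281 probes 17218 had a detection p under 0.05 on at least 3 arrays. The platform annotation gave 34885 probes 1 symbol, 18 several and 10378 none; 2772 kept probes without a single symbol were left out. All 36 Nduf genes were found by Entrez number in the RefSeq table. Different probes of a gene were not averaged: the brightest stood for it, so values of different genes are not compared as levels. Fold changes carry the offset, which understates changes of dim genes.

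One limma model (lmFit, eBayes) of the 4 group means over the 12 arrays gave two-sided tests, with Benjamini-Hochberg adjustment over 9747 genes for each of 6 contrasts and a moderated F test, at a threshold of 0.05. The fit was tested on simulated data with known changes. The number of arrays limits the precision. Every Nduf gene could be named. Values per array were printed for genes that passed and for the 3 highest and 3 lowest effects in each of the contrasts between groups, leaving out the interaction. Other lists could name up to 4 genes by F p, with Esrra, Ppargc1a, Thrsp and Dio1. The members and lists were chosen with earlier results of these data known. Alternatives were other backgrounds, scalings, filters, probe rules, array weights, the compared groups alone, a block for array number and leaving out each array. Array numbers were not taken as pairs: over 18 same-numbered pairs the deviations from group means correlated at -0.13 to 0.13, with 2 pairs over 0.1.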

Additional observations from a re-analysis of the deposited data

How the results depend on the processing

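The scaling mattered most. Limma's median scaling over all probes shifted the median of all genes to -0.04 for T3 against control, -0.09 for XCT790 against control, -0.17 for T3 in mice given XCT790, -0.22 for XCT790 in mice given T3, -0.27 for both compounds against control and -0.13 for the interaction. The Nduf medians became 0.08, -0.09, -0.1, -0.23, -0.17 and -0.13 in that order, or 0.12, 0, 0.07, -0.02, 0.09 and 0 relative to the all-gene median, and 0 Nduf genes passed in any contrast or by the F test. Ndufs7 turned from 0.31 to -0.01 for both compounds against control (adjusted p = 0.969). Scaling over detected probes, chosen after seeing the data, gave Nduf medians of 0.11, 0.04, 0.09, 0.05, 0.14 and 0.02. The all-gene medians were then -0.01, 0.04, 0.01, 0.07, 0.05 and 0.02. Relative to these the Nduf medians were 0.12, 0, 0.07, -0.02, 0.09 and 0. With this scaling 2 Nduf genes passed for T3 against control and 3 by the F test. The mean over probes gave -0.07 for XCT790 in mice given T3. With only the groups compared, 3 genes passed for T3 against control and 2 for both compounds. The replicate block left 3 for T3 against control and 3 by the F test. Without each array in turn, genes passing numbered 2 to 4 for T3 against control, 3 to 4 for T3 in mice given XCT790, 2 to 5 for both compounds and 3 to 8 by the F test. Medians then ran from 0.12 to 0.19, 0.11 to 0.13 and 0.09 to 0.13 for these contrasts, -0.03 to 0 for XCT790 against control, -0.05 to -0.02 for XCT790 in mice given T3 and -0.03 to 0.01 for the interaction. XCT790 against control, XCT790 in mice given T3 and the interaction had 0 Nduf genes passing in every setting run. The shares of all genes that passed in these settings are not given, so the counts do not show whether Nduf calls changed more than others. The cause of these changes was not tested. Few arrays and probes near background, as for Ndufb11, limit what could be detected.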
